A study of Mus musculus with 31 samples.

Results

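The cytosolic ribosomal protein genes were followed by subunit through RNA pulled down with tagged ribosomes from axons and somas of mouse sensory neurons. Members were the protein-coding genes of both count tables whose symbol in the GENCODE M21 annotation begins with Rpl or Rps and a number, together with Rplp0, Rplp1, Rplp2 and Rpsa. Kinases (Rps6k genes), Rps19bp1 and pseudogenes with -ps in their symbol were left out. The rule found 85 genes among 55536 gene identifiers, of which 22028 were protein-coding. Of these, 52 belong to the large and 33 to the small subunit.

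The assay was TRAP, translating ribosome affinity purification. Nav1.8-Cre;L10a-eGFP-fl/fl mice carry a Cre recombinase driven by the promoter of Nav1.8, a sodium channel of pain-sensing neurons encoded by Scn10a, which switches on a ribosomal protein L10a fused to green fluorescent protein. The controls carried L10a-eGFP-fl/fl without Cre and went through the same pulldown. Central axons came from lumbar dorsal root with spinal cord (4 Cre and 4 control libraries) and were deposited in batch 1 with somas from lumbar dorsal root ganglia (4 and 4). Peripheral axons came from sciatic nerve (4 Cre and 3 control libraries) and were deposited in batch 2 with another set of somas (4 and 4). The tag sits on the product of a member: counts of Rpl10a in Cre libraries may include the transcript of the fusion, and the endogenous and transgene transcripts cannot be told apart here. The libraries of a group are named as biological replicates, and the p-values below measure the spread between those libraries.

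A cytosolic ribosome is built from one copy of nearly every ribosomal protein, so their genes are commonly read as one set. The large subunit holds the site where peptide bonds form, the tunnel through which the new protein leaves, and a flexible stalk that recruits translation factors, while the small subunit binds and decodes the mRNA. Ribosomal protein mRNAs are the classic carriers of a 5′ terminal oligopyrimidine (TOP) tract, a run of C and T at the very start of the transcript through which the kinase mTOR and the binding protein LARP1 regulate their translation, and they are among the mRNAs long known to be present in axons.

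Starts of transcription from RefSeq on GRCm38.p6 were listed for 65 of the 85 members. An unbroken run of at least 5 C or T on the gene's strand that overlapped the annotated start base and held a C was found at a start of 21 members (32.31%), against 9.75% of all 27025 genes listed. Below are windows of 30 bases, with 15 bases before the start, for members to which the results return: Rplp2, Rpl38 and Rps21, which fell in central axons, Rps6, one of the genes marking the set, and Rplp0, Rpl5 and Rps26, whose listed starts carry no such run. Rps26, without a run, fell in central axons as well. Capitals mark the run.
Rplp2: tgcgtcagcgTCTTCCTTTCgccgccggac
Rpl38: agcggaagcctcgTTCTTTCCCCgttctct
Rps21: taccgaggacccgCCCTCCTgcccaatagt
Rps6: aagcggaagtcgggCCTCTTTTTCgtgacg
Rplp0: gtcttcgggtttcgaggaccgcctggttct
Rpl5: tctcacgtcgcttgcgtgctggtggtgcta
Rps26: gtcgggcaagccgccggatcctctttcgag
The windows lie at chr7:141447636-141447665 (Rplp2, plus strand), chr11:114668565-114668594 (Rpl38, plus), chr2:180257364-180257393 (Rps21, plus), chr4:86857353-86857382 (Rps6, minus), chr5:115559452-115559481 (Rplp0, plus), chr5:107900513-107900542 (Rpl5, plus) and chr10:128626492-128626521 (Rps26, minus). Each spans the upstream flank and the first bases of the first exon. Another listed start of Rps21 had no run. The run is a description of these letters at an annotated start, and a start without it says nothing of the transcripts made in these cells.

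The 31 libraries held 3.60 to 19.6 M counts each (M, mega). The detection floor was set at 3 counts, which corresponds to 0.153 to 0.833 CPM (counts scaled to a library total of 1 M). Of the 85 members, 62 to 82 had at least 10 counts in a library, the fewest in the soma controls of batch 1. Rpl10l had no count in any library, and Rpl39l exceeded 3 counts in 2. Scn10a stood at 45.1 to 421 CPM in the central axon Cre libraries and 0 to 29.9 CPM in their controls, but in the peripheral axons (42.1 to 304 CPM in Cre, 0 to 127 CPM in control libraries) and in the somas of both batches the Cre and control ranges overlapped. In 2 control libraries, annotated ribosomal protein pseudogenes took far more of the counts on members and these pseudogenes together than in the other 29. Their share was 5.30% in central axon control 4 and 17.1% in soma control b of batch 1. Soma control 3 of batch 1 also stood apart, with a TMM scaling factor of 0.0547. Comparisons that use the batch 1 soma controls are given with and without controls 3 and b, a choice made after seeing the data.

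Ribosomal protein genes made up the largest mean share of counts in the peripheral axon Cre libraries. The members took 4.08% ± 1.73 of all counts there (SD, n = 4), with libraries between 2.64% and 6.45%. The controls of the peripheral axon held 1.98% ± 0.451 (n = 3), the Cre somas of the same batch 1.74% ± 0.350 (n = 4) and the soma controls 2.12% ± 0.722 (n = 4). Every peripheral axon Cre library was thus above every peripheral axon control and every batch 2 Cre soma. In batch 1 the mean of the axon was below that of the soma, and all means were smaller. Central axon Cre libraries held 0.573% ± 0.154 (n = 4), their controls 0.611% ± 0.227 (n = 4), the Cre somas 1.01% ± 0.288 (n = 4) and the soma controls 0.968% ± 0.283 (n = 4), and the ranges of central axon and soma Cre libraries met, at up to 0.754% and down to 0.749%. The ratio of large to small subunit counts stayed between 1.18 and 1.48 in the group means, lowest in the batch 1 Cre somas and highest in the peripheral axon controls. In bulk RNA of this kind, fewer cells or axons of a type and less RNA in each cannot be told apart.

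**Figure D1:**
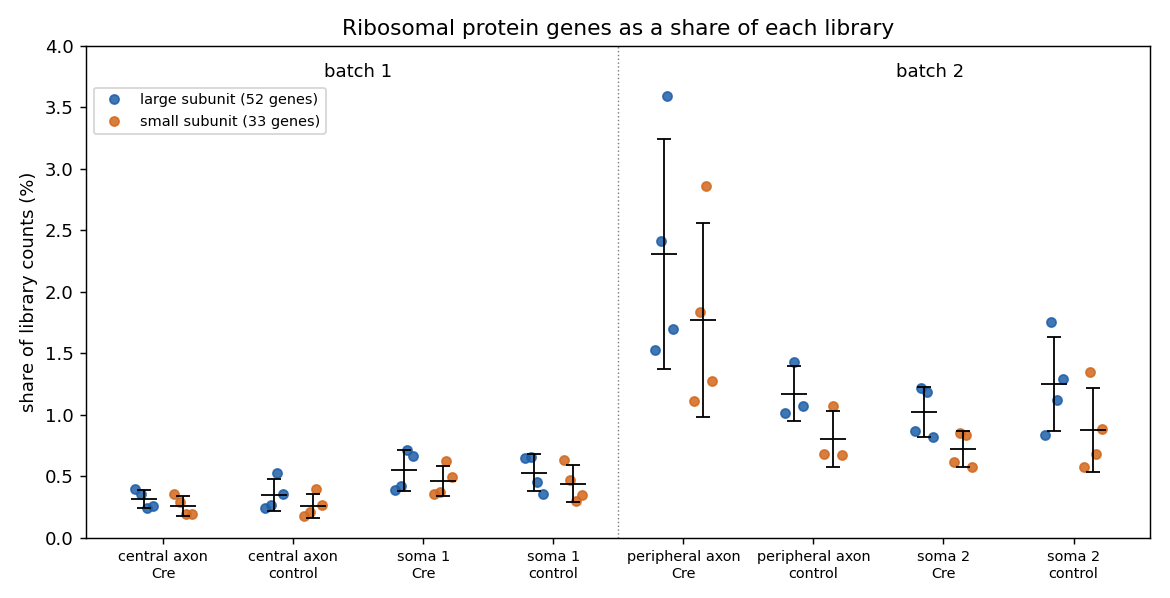
The vertical axis is the share of library counts (%) on the 52 large subunit genes (blue) and the 33 small subunit genes (orange), the horizontal axis the 8 groups, with 1 point per library and the mean ± SD in black. The peripheral axon Cre group has the highest mean share of both subunits, with libraries that reach down into the range of the batch 2 soma controls, and the means of all batch 1 groups lie below those of batch 2.

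Levels were compared between genes only per kilobase of each gene's principal coding transcript. The same few short genes led in most groups. Among the large subunit genes, Rpl38, Rpl41 (the shortest, with a coding length of 75 nt) and the stalk genes Rplp1 and Rplp2 had the highest levels in the Cre somas and the peripheral axons. Rpl38 stood at 1224 ± 681 CPM per kb in the batch 1 Cre somas, 1392 ± 322 in those of batch 2, 3063 ± 1883 in the peripheral axon and 306.5 ± 149 in the central axon (SD, n = 4 each). In the central axon Rpl41 (364 ± 153) and Rplp1 (360 ± 129) led instead, with Rpl8, a protein of the peptidyl transferase region, at 347 ± 127 CPM per kb. These neighbours did not differ beyond their spread.

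Among the small subunit genes, Rps15, of the decoding centre, was first or second in all 4 Cre groups, at 976 ± 401 CPM per kb in batch 1 somas, 467 ± 184 in central axons, 1125 ± 314 in batch 2 somas and 2081 ± 1288 in peripheral axons. The lower end of the list was far below. Rps10, of the beak of the small subunit, stood at 10.5 and 11.6 CPM per kb in the Cre somas of batch 1 and 2, 8.74 in the central axon and 3.74 in the peripheral axon, and Rpl24 stood between 0.999 and 2.14 CPM per kb in the 4 Cre groups. Of the 85 members, 50 share over 50% of the 50-base stretches of their principal coding transcript with other annotated genes. Of the exonic bases of Rpl24, 47.0% also belong to Gm28037 on the same strand, and 20.6% of those of Rps10 to RPS10-NUDT3. How reads that fit several genes were counted is not given in the sources used here, so levels of single members, low ones above all, are uncertain.

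The level of a member differed between the batches even in the same tissue. In the Cre somas, which came from the same tissue and genotype, the mean CPM in batch 2 exceeded that in batch 1 by a median of 1.53 on the log2 scale over 81 members above 1 CPM in both (range −1.45 to 5.67), while the median over 13024 genes was −0.03. Rpl5, which forms a particle with 5S ribosomal RNA, stood at 3.63, 3.51, 3.02 and 2.12 CPM in the batch 1 Cre somas and at 130, 148, 167 and 130 CPM in those of batch 2. Rpl4, a large protein that lines the exit tunnel, stood at 262, 360, 636 and 308 CPM against 355, 392, 426 and 326. The Rpl5 groups lie far apart and those of Rpl4 overlap.

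The difference ran with shared sequence. The median was −0.08 for the 4 members with under 10% of their 50-base stretches in other genes, 0.58 for the 28 in between and 2.03 for the 49 with over 50%. Across the 81 members Spearman's rho was 0.554, a description over genes measured in the same 8 libraries. Whether the tables were counted differently was not tested, and axons are compared below only with somas of their own batch.

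**Figure D2:**
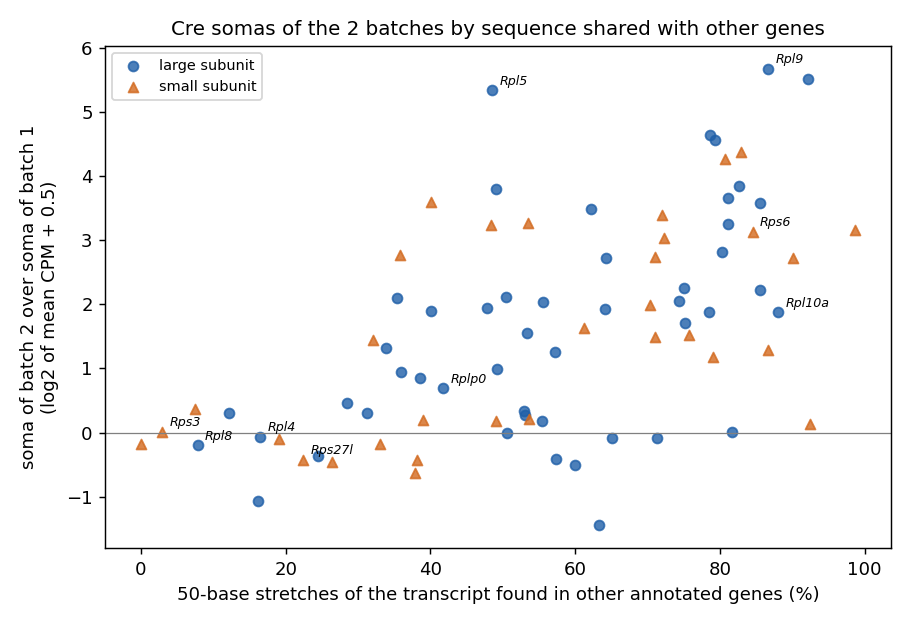
Each point is a member above 1 CPM in both sets of Cre somas. The horizontal axis is the percentage of 50-base stretches of its principal coding transcript found in other annotated genes. The vertical axis is the log2 of mean CPM (plus 0.5) in batch 2 over batch 1. Members with over 50% shared sequence have the highest median (2.03) but range from −1.45 to 5.67. Rpl5, with 48.6% shared, lies near the top and Rpl4 near 0.

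Central axons were first set against the somas of the same batch, within the Cre libraries. Of 82 members tested, 29 fell and none rose: 19 of 49 large subunit and 10 of 33 small subunit genes had an adjusted p under 0.05 in edgeR's quasi-likelihood test. Over all 14480 genes tested, 5.11% fell and 8.63% rose. The median log2 change was −1.04 over the members (−0.96 for the large and −1.16 for the small subunit) and 0.05 over all genes. Of the members, 19 had central axon libraries all below all soma libraries, against 4.17% of all genes. DESeq2 called 39 lower and 1 higher of 84, and 13.4% of all genes in either direction. Log2 changes are on the TMM scale, whose factors were 1.03 to 1.29 for the axon and 0.781 to 0.923 for the soma libraries, so they lie below the ratio of the CPM given beside them.

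Stalk proteins 1 and 2, which bind translation factors at the tip of the stalk, were among the lowest. Rplp2 stood at 143, 124, 67.7 and 84.3 CPM in the central axon and at 215, 192, 384 and 664 CPM in the soma, without overlap, and fell by 2.20 on the log2 scale (SE 0.44, adjusted p = 0.00738, edgeR). Rplp1 fell by 1.96 (adjusted p = 0.0129), from 284, 293, 678 and 833 CPM in the soma to 220.1, 243, 100.1 and 156 CPM in the axon. The other stalk genes did not pass. Rplp0, which anchors it to the ribosomal RNA, stood at 179, 211, 128 and 145 CPM in the axon and at 130, 147, 146 and 139.6 CPM in the soma, a difference of −0.20 (SE 0.28, adjusted p = 0.686) with overlapping groups, where its mean CPM was 165.6 in the axon and 140.8 in the soma. Rpl12, beside it, differed by 0.06 (SE 0.48, adjusted p = 0.952), at under 20 CPM in every one of these libraries.

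Rpl38 fell most among the large subunit genes. Its axon libraries stood at 175, 114, 71.3 and 62.7 CPM and its soma libraries at 243, 234, 484 and 729 CPM, a fall of 2.38 (SE 0.48, adjusted p = 0.00766). Rpl34 fell by 2.12 (adjusted p = 0.00647), Rpl36al by 2.12 (adjusted p = 0.00602), and Rpl35a and Rpl39, the latter a short protein of the exit tunnel, by 1.95 and 1.90 (adjusted p = 0.0125 and 0.0126). For these 5 genes the axon and soma libraries did not overlap.

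In the small subunit, Rps21 fell by 2.38 (SE 0.50, adjusted p = 0.00976), from 145, 138, 293 and 537 CPM in the soma to 100.4, 96.4, 36.4 and 45.95 CPM in the axon. Rps9, which lies where the mRNA enters, fell by 1.48 (SE 0.36, adjusted p = 0.0175), and its 4 axon libraries (349, 289.5, 217 and 188 CPM) were all below its soma libraries (438, 437, 742.5 and 550.3 CPM). Rps24, Rps29, Rps27l and Rps20 fell by 1.60, 1.92, 1.23 and 1.61 (adjusted p = 0.0211, 0.0211, 0.0215 and 0.025). Rps6, the target of S6 kinase, did not pass, at −0.37 (SE 0.57, adjusted p = 0.711), with axon libraries at 25.5, 14.4, 24.0 and 11.01 CPM and soma libraries at 23.2, 24.4, 20.4 and 3.71 CPM, whose means were 18.7 and 17.9 CPM. Rpl10a, whose product carries the tag, differed by 0.04 (SE 0.39, adjusted p = 0.959), at 47.7, 37.4, 47.6 and 66.8 CPM in the axon and 40.5, 40.6, 44.2 and 13.8 CPM in the soma. Rpl5 was the member with the largest positive value, 1.46 (SE 0.63, adjusted p = 0.14), with 5.38 to 17.3 CPM in the axon and 2.12 to 3.63 CPM in the soma, and it did not pass.

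The members that fell were mostly the short ones, and short genes outside the set fell as well. Of 11 members with a coding length under 300 nt, 8 fell (median −1.71). Of 48 members from 300 to under 600 nt, 18 fell (median −1.16), and of 23 members of 600 nt or more, 3 fell (median −0.40). Other protein-coding genes followed the same order, with medians of −1.06 over 277 genes, −0.58 over 1375 and 0.16 over 11470, and 38.6%, 18.1% and 2.88% of them fell. Across the 82 members, log2 change and coding length had a Pearson r of 0.615, a description over genes of the same 8 libraries. The calls ran with shared sequence too. Of members with under 10% of their 50-base stretches in other genes, 3 of 4 fell (median −1.29). Of those in between 16 of 28 fell (median −1.30), and of those with over 50% 10 of 50 (median −0.79). Spearman's rho of log2 change with shared sequence was 0.398. With a trend on coding length taken out of each library, a setting chosen after seeing the data, 9 members fell and the median was −0.54. Of all genes tested there, 13.2% were called in either direction.

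**Figure D3:**
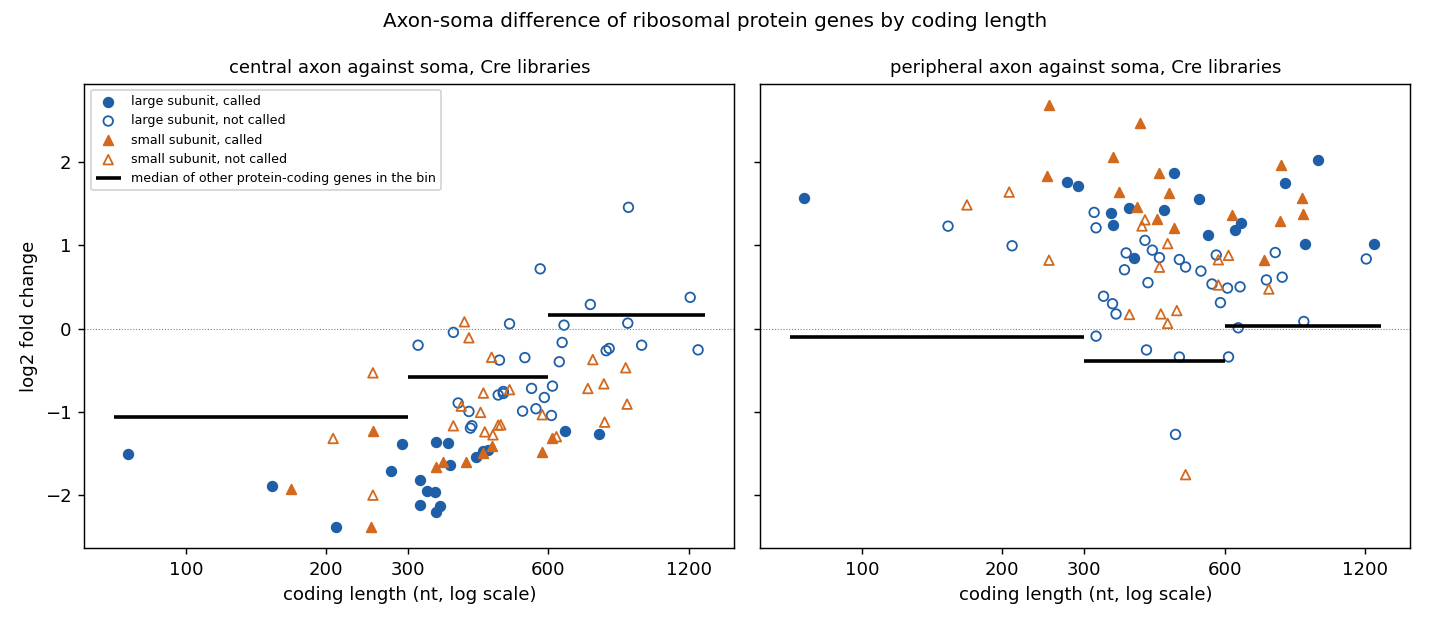
The horizontal axis is coding length (nt, log scale) and the vertical axis the log2 fold change of axon against soma in Cre libraries, for central (left) and peripheral axons (right), with filled symbols for called members and black bars for the median of other protein-coding genes in each range of length. On the left members and bars climb together with length, and on the right most members lie above 0 at every length.

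The count also depended on the fit. It was 13 of 82 with scaling by library size alone, where 16.8% of all genes were called in either direction. It was 0 in a fit of all 4 groups of the batch (4 members at an unadjusted p under 0.05), where 0.0977% of all genes were called. Leaving out central axon library 2, 3 or 4 or soma library 3 gave 11, 10, 10 and 12 members lower. Of all genes, 6.34%, 7.03%, 5.5% and 9.08% were called in these runs. Markers of other cells differed between these groups: the summed level of 6 astrocyte markers was 296 to 1347 CPM in central axon Cre libraries and 1.99 to 32.0 CPM in the somas, that of 5 spinal neuron markers 84.3 to 291 CPM and 1.27 to 6.99 CPM (Chat, Gad2, Slc32a1 and Slc6a5 at or under 3 counts in the somas), and that of 10 Schwann cell markers 1020 to 6430 CPM and 871 to 2556 CPM. All astrocyte and Schwann cell markers exceeded 3 counts in both groups, the 9 nociceptor markers summed to 1688 to 8668 CPM in the axons against 7201 to 11580 CPM in the somas, and their part in the result was not tested.

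Peripheral axons showed the opposite direction against their somas. Of 81 members tested in the Cre libraries, 33 rose and none fell, 17 of 49 large subunit and 16 of 32 small subunit genes, where 18.7% of all 15467 genes rose and 12.5% fell. The median log2 change was 1.00 (0.88 for the large and 1.30 for the small subunit) against −0.03 over all genes, and 75 of the 81 were above 0, against 49.1%. Axon libraries were all above all soma libraries for 43 members, against 20.7% of all genes, and all below for 1 member, Rps10, against 16%. DESeq2 called 32 of 84 higher, and 24.9% of all genes in either direction.

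Rplp0, the base of the stalk, had the smallest adjusted p of the set. It stood at 1383, 1038, 1019 and 859 CPM in the peripheral axon and at 227, 274, 234 and 179 CPM in the soma, and rose by 2.03 (SE 0.28, adjusted p = 0.00034). Rplp1 and Rplp2 rose by 1.38 and 1.24 (adjusted p = 0.0279 and 0.0454), with axon and soma libraries that overlapped: Rplp2 stood at 426, 1001, 1461 and 751 CPM in the axon and at 273, 459, 390 and 257 CPM in the soma. Rpl12 differed by 0.74 (adjusted p = 0.121) and did not pass.

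The other large subunit genes that rose were spread over the particle. Rpl7 rose by 1.75 (SE 0.28, adjusted p = 0.000968), from 191, 188, 221.5 and 141 CPM in the soma to 779, 703, 814 and 566 CPM in the axon, and the groups lie apart. Rpl23a and Rpl4, both at the exit tunnel, rose by 1.87 and 1.01 (adjusted p = 0.00802 and 0.0185). Rpl5 rose by 1.02 (adjusted p = 0.0137), while its partner in the 5S particle, Rpl11, differed by 0.69 (adjusted p = 0.175). Rpl13 and Rpl37a rose by 1.19 and 1.76 (adjusted p = 0.015 and 0.0162). No gene of the peptidyl transferase region passed (Rpl3 0.84, adjusted p = 0.0614; Rpl8 0.91, adjusted p = 0.0646). Rpl10a stood at 168, 228, 274 and 156 CPM in the axon and 117, 146, 141 and 111 CPM in the soma. These groups did not overlap, but the difference of 0.50 (SE 0.29, adjusted p = 0.213) did not pass.

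In the small subunit, Rps27 rose most, by 2.69 (SE 0.45, adjusted p = 0.00126), from 46.95, 67.9, 53.5 and 36.0 CPM in the soma to 264, 310, 694 and 192 CPM in the axon. Rps3a1 rose by 1.97 (SE 0.28, adjusted p = 0.000427), with 732, 859, 863 and 687 CPM in the axon against 189.9, 185, 197 and 132 CPM. Rps2, at the mRNA entry, rose by 1.56 (adjusted p = 0.00246), Rps12, of the beak, by 2.48 (adjusted p = 0.00375), Rps19 by 1.87 (adjusted p = 0.00318), and Rps26, at the mRNA exit, by 2.06 (adjusted p = 0.00797). For all 6 the lowest axon library exceeded the highest soma library. Rps6 stood at 251, 298, 264 and 219 CPM in the axon and 134, 162, 203 and 146 CPM in the soma, also without overlap, and its difference of 0.48 (SE 0.27, adjusted p = 0.195) did not pass. Rps10 went the other way at −1.75 (SE 0.96, adjusted p = 0.187), with 0 to 4.39 CPM in the axon and 5.04 to 7.08 CPM in the soma. Of the counts on Rps10 and its 4 named pseudogenes, the pseudogenes held 72.7% in the axon and 16.3% in the soma libraries. The direction for Rps10 alone is therefore uncertain.

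Coding length did not order these differences as in batch 1. The medians were 1.61 for 10 members under 300 nt, 0.87 for 48 from 300 to under 600 nt and 0.91 for 23 of 600 nt or more, and −0.10, −0.39 and 0.03 for other protein-coding genes of those lengths. With the length trend taken out, 62 members rose. With library size alone the count was 53 of 81, where 30.9% of all genes were called in either direction. A fit of all 4 groups of the batch gave 8 of 82 (8.93% of all genes). The count was 10, 11 and 19 of 81 without soma library 8, 5 or 7. Of all genes, 22.5% and 20.8% were called without soma library 5 or 7, and 3220 of 16097 without soma library 8. Without axon library 3 it was 20 of 81 (34.1% of all genes). That library held the highest value of Rps21 (1890 CPM against 178, 647 and 403 CPM in the other 3). Without it the median was 0.64, the lowest of the runs without 1 library. In these runs, apart from library size alone, members were called about as often as all genes or less often. Of other cell types, 10 Schwann cell markers summed to 11660 to 30870 CPM in the peripheral axon Cre libraries and 769 to 972 CPM in the Cre somas, 6 fibroblast markers to 3816 to 6686 CPM and 173 to 364 CPM, and 6 skeletal muscle markers to 624 to 2450 CPM and 15.5 to 80.2 CPM. All of these markers but Myh4, in the somas, exceeded 3 counts, the 9 nociceptor markers summed to 1041 to 4379 CPM in the axons against 7421 to 9217 CPM in the somas, and the part of these cells in the result was not tested.

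The axon-soma difference was then compared between the axon types, each relative to the somas of its own batch. Of 82 members, 49 had a lower difference in central than in peripheral axons and none a higher one, 25 of the large and 24 of the small subunit, against 5.88% lower and 7.2% higher among 16725 genes. The median was −1.90 (−1.58 large, −2.14 small), and 0.26 over all genes. Batch and axon type coincide, so beyond the use of each batch's own somas they cannot be told apart. Of the 29 members that fell in central axons, 10 were among the 33 that rose in peripheral axons (34.5% of the first and 30.3% of the second list): Rpl14, Rpl27a, Rpl37, Rpl37a, Rpl41, Rplp1, Rplp2, Rps20, Rps21 and Rps26. These lists share no library. Of all members tested, 40.7% rose in peripheral and 35.4% fell in central axons, so the overlap is no larger than those shares.

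**Figure D4:**
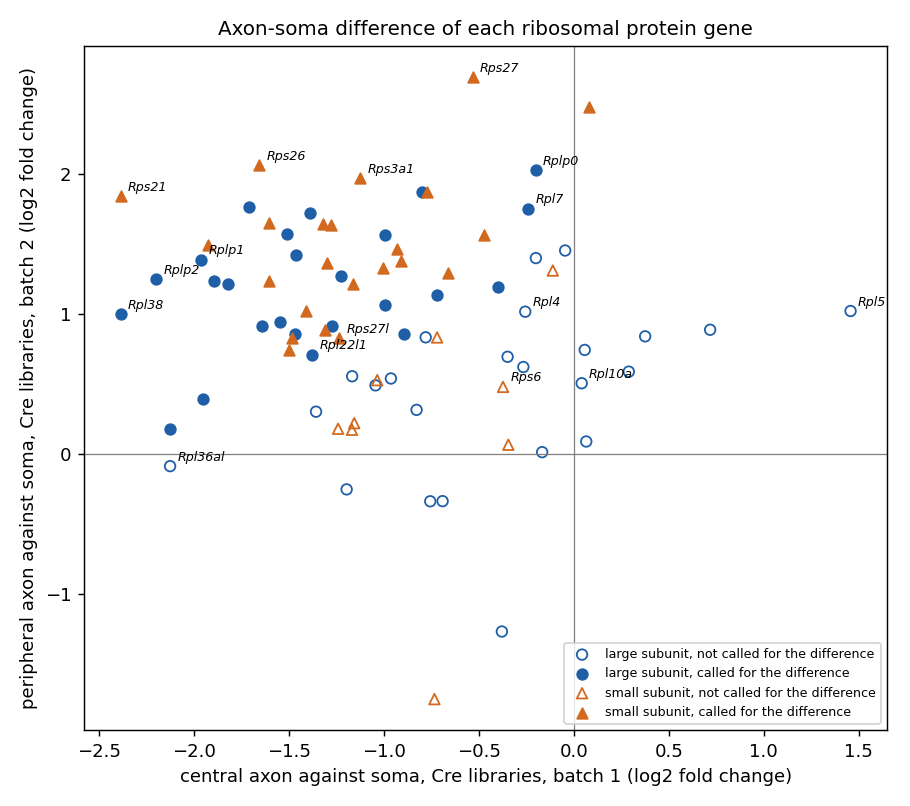
Each point is a member, with its log2 fold change of central axon against soma on the horizontal axis and of peripheral axon against soma on the vertical axis, both in Cre libraries, and filled where the difference between them was called. Nearly all filled points lie in the upper left, and Rpl10a and Rps6 are open symbols at 0.50 and 0.48 on the vertical axis.

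Among the roles described here, the difference was called for 3 of 4 stalk genes, both decoding centre genes (Rps15 and Rps23) and 5 of 8 exit tunnel genes. It was called for 3 of 4 foot and body genes and 2 of 3 genes each at the mRNA entry and the beak. In the peptidyl transferase region 1 of 3 was called (Rpl8), and in the 5S particle neither gene. Of all members tested 59.8% were called, and of all genes 5.88% were lower. The counts per role are too small to tell a role from the members as a whole. Rps3a1 had the smallest adjusted p, at −2.92 (SE 0.46, adjusted p = 0.000812). Rplp0 differed by −2.06 (adjusted p = 0.00192), Rplp2 by −3.26 (adjusted p = 0.00283), Rplp1 by −3.16 (adjusted p = 0.00332) and Rpl37a by −3.30 (adjusted p = 0.00283). Rps26, Rps27, Rps20, Rps18 and Rps21 differed by −3.54, −3.04, −3.07, −2.72 and −4.05 (adjusted p from 0.00338 to 0.00536). Rpl10a (−0.28, SE 0.50, adjusted p = 0.76), Rps6 (−0.70, SE 0.61, adjusted p = 0.483) and Rpl12 (−0.51, SE 0.46, adjusted p = 0.496) did not pass. The call of Rps27rt (adjusted p = 0.0495) rests on counts near 0 in batch 2 and gives no usable fold.

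Shorter members again had medians farther from 0, of −3.04 under 300 nt (11 of 11 called), −1.89 from 300 to under 600 nt (27 of 48) and −1.37 from 600 nt (11 of 23). For other protein-coding genes the medians were −0.68, −0.06 and 0.32, and 19.7%, 8.49% and 5.40% were lower. With the length trend taken out, 57 members were lower and the median was −1.95, where 16.2% of all genes tested were called in either direction.

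**Figure D5:**
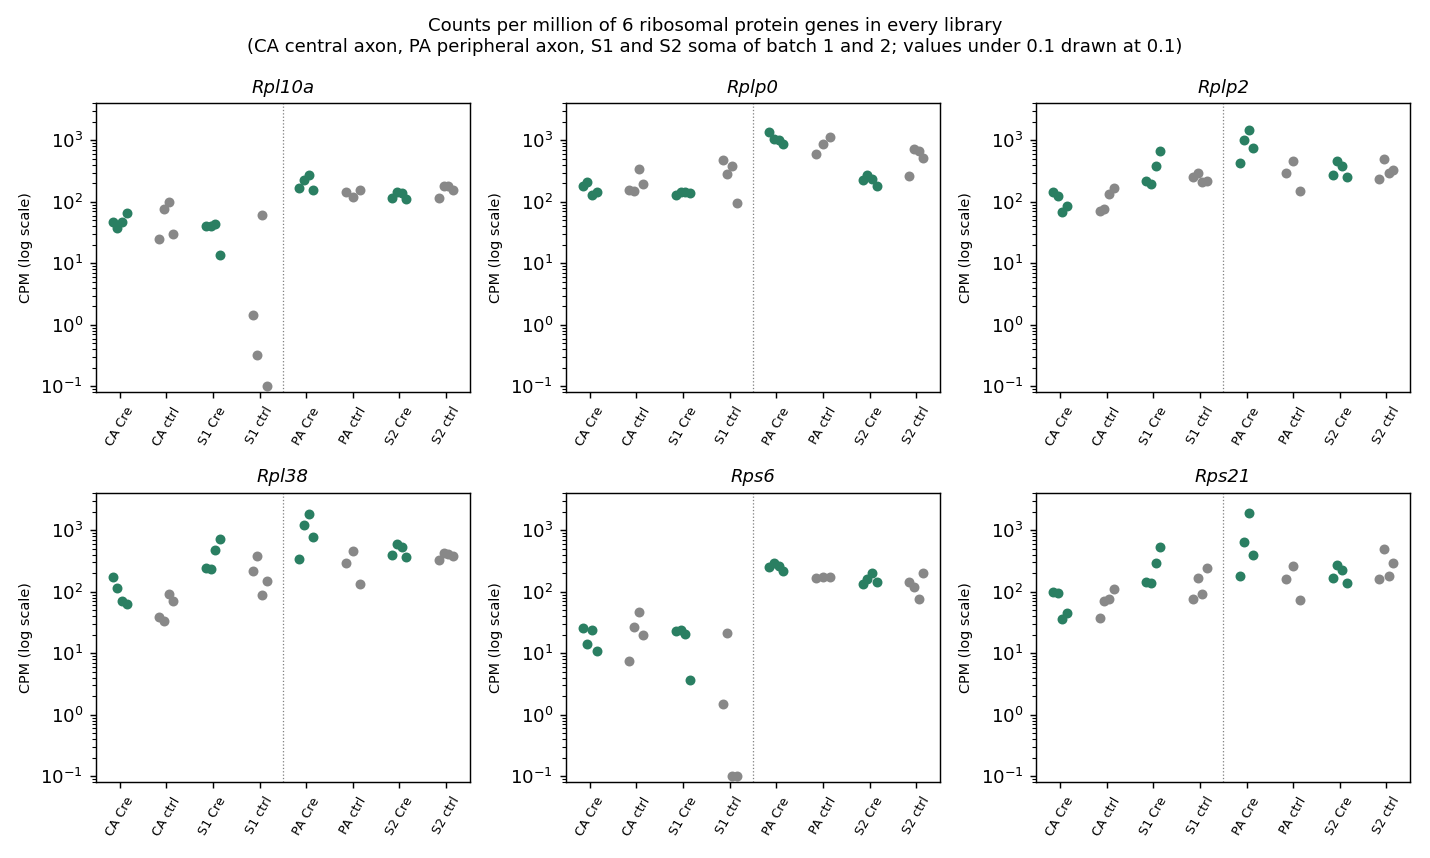
The vertical axis is CPM (log scale) of Rpl10a, Rplp0, Rplp2, Rpl38, Rps6 and Rps21 and the horizontal axis the 8 groups, with 1 point per library, Cre libraries in green and controls in grey. Rplp0 is high in the peripheral axon with and without Cre, Rplp2, Rpl38 and Rps21 are lower in central axons than in their somas, and the soma controls of batch 1 scatter over several orders of magnitude for Rpl10a and Rps6.

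The comparison of Cre with control libraries asks how far a signal exceeds what the pulldown holds without a tag. In the central axon none of 82 members passed in edgeR or DESeq2, at a background of 0.0141% of 14189 genes, and 0 (edgeR) and 2 (DESeq2) had an unadjusted p under 0.05, against 3.2% of all genes higher and 1.62% lower in edgeR. The median was 0.08, near the 0.11 of all genes. Cre libraries lay all above the controls for 4 members, among them Rpl5 (5.38 to 17.3 against 0 to 4.77 CPM) and Rpl22l1, where 6.82% of all genes did so. Rplp0, Rpl10a and Rps6 differed by −0.30, −0.16 and −0.34, each within its SE.

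In the peripheral axon 0 of 81 members passed in edgeR or DESeq2, as did 0% of 13970 genes in edgeR, so no member is called enriched over its control. Their median was 1.18 (1.10 large, 1.27 small) against 0.07 over all genes, 80 of 81 were above 0 against 53.1%. At an unadjusted p under 0.05, 36 (19 large and 17 small) were higher, against 2.09%, and none lower. That number was 3 without Cre library 3, 4 and 11 without control 1 or 4, and 54 without Cre library 1, and the median was 0.73 without Cre library 3. Cre libraries lay all above the controls for 22 members and all below for none, against 3.58% and 2.86%.

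Rps15a had the smallest p (2.05, SE 0.64, adjusted p = 1.0), with 182, 230.4, 611 and 138 CPM in Cre libraries and 75.7, 102 and 49.1 CPM in controls. Rpl7 (1.18, SE 0.38), Rps12 (1.78, SE 0.61) and Rplp1 (1.58, SE 0.57) followed, and the adjusted p was 1.0 for every member. Rps6 stood at 251, 298, 264 and 219 CPM against 170, 173 and 175 CPM, without overlap, and differed by 0.67 (SE 0.34). Rplp0, the member with the clearest rise over the soma, did not stand apart here: its controls were at 598.5, 878 and 1133 CPM, within reach of the Cre libraries, and it differed by 0.39 (SE 0.41). Rpl10a differed by 0.68 (SE 0.38). Members under 300 nt had a median of 1.89, those of 600 nt or more 0.69, and other protein-coding genes of those lengths 0.59 and 0.02. Schwann cell markers summed to 9860 to 17890 CPM in these controls, fibroblast markers to 5224 to 19580 CPM and muscle markers to 977 to 19270 CPM, and their part in the shift was not tested.

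The somas showed no called member either. In batch 1 no member passed in edgeR or DESeq2 (4.42% of all genes did in edgeR), 14 were lower at an unadjusted p under 0.05 (6.57% of all genes), and the median was −2.74 against −0.45 over all genes; leaving out 1 library gave 1 to 35 members at that p, and each omission but that of soma control 1 (19 members) moved the number by over 1.5 times. Without soma controls 3 and b the median was 0.05, with 3 members higher and 1 lower where 34.1% of all genes were called. With library size alone it was 0.03, with 1 member higher (19.2% of all genes called), and without control 3 alone it was 0.22, with 1 higher (24.3%). Rpl10a stood at 1.47, 0.324, 60.2 and 0 CPM in the 4 controls, so the library at 60.2 CPM holds nearly all of it. In batch 2 no member passed in edgeR, 9 were higher and 2 lower at an unadjusted p under 0.05 (6.54% and 9.84% of all genes), the edgeR background was 0%, DESeq2 called 2 higher and 1 lower of 84 where it called 5.58% of all genes, and the median was −0.08 against 0.06. Without soma control 5 of batch 2, edgeR called 1 higher and 2 lower, and 11.7% of all genes.

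Controls of axon and soma were also compared with each other. In batch 1, 0 of 80 members passed (5 at an unadjusted p under 0.05, where 8.54% of all genes were higher and 3.83% lower, median −1.59, background 0%, DESeq2 0). Without soma controls 3 and b, 3 members were at that p and the median was −0.91. Without control b alone these were 51 and −4.35, without control 3 alone 2 and −0.64, and with RLE scaling 27 and −2.92, so its size depends on these libraries. In batch 2, 0 of 81 passed (0 at an unadjusted p under 0.05, where 4.92% of all genes were higher and 4.86% lower, median −0.27, background 0.0802%, DESeq2 0), so the rise of the Cre comparison was not seen as a call there. The test of the difference itself, the axon-soma difference in Cre against that in control libraries, also called no member. In batch 2 its median was 1.14 against 0.13, with 28 of 82 members higher and none lower at an unadjusted p under 0.05 (7.23% and 2.51% of all genes; 0.00636% passed the adjusted test), and DESeq2 called 2 of 84 where it called 1.55% of all genes. Leaving out 1 library gave 10 to 43 members at that p, with 10 without axon Cre library 3, 11 without axon control 1 or soma control 6, 12 without axon control 4, 17 and 18 without Cre soma 8 or 5, and 43 without axon control 2. In batch 1 its median was 0.50, and 1 member had an unadjusted p under 0.05 (3.18% of all genes higher and 17.2% lower; 0% passed). That median was −0.13 without soma controls 3 and b, −0.18 without control 3 alone, 3.28 without control b alone (41 members at that p) 2.35 with RLE scaling (15) and −0.10 with library size alone, so its direction depends on these libraries and on the scaling.

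Some members are paralogs of another member. Rpl22l1 fell in central axons (−1.38, adjusted p = 0.0233) from 47.2, 38.5, 66.5 and 58.2 CPM to 34.7, 32.8, 20.5 and 21.2 CPM, while its parent Rpl22 did not pass (−0.89, adjusted p = 0.0984). In peripheral axons Rpl22 rose (0.85, adjusted p = 0.0254), and Rpl22l1 (0.71, adjusted p = 0.214) did not pass. Rpl36al and its X-linked parent Rpl36a both fell in central axons (by 2.12 and 1.82). In peripheral axons they stood at −0.09 and 1.21 (adjusted p = 0.895 and 0.0946). No difference between a paralog and its parent was tested.

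Rps27l fell in central axons (−1.23) where Rps27, at 2.71 to 8.02 CPM in these libraries, did not pass (−0.53, adjusted p = 0.656), and in peripheral axons Rps27 rose and Rps27l (0.82, adjusted p = 0.0909) did not pass. Rps27rt, which shares 91.1% of its 50-base stretches with other genes, was at 3.42 to 32.5 CPM in batch 1 Cre somas and at most 0.976 CPM in any Cre library of batch 2, given side by side and not tested. Rpl7l1, an assembly factor related to Rpl7, did not pass in either axon (0.29 and 0.59). Rpl3l, the striated muscle form of Rpl3, was at 0, 2.99, 5.61 and 0 CPM in peripheral axon Cre libraries and 4.18, 3.39 and 0 CPM in their controls, and at most 0.187 CPM in the batch 2 Cre somas. It was also at 19.5 CPM in soma control 8 of batch 2, so Rpl3l appeared in single libraries with and without Cre.

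Members with a pyrimidine run at a listed start were set beside those without. In central axons 11 of 21 with a run and 11 of 41 without fell, with medians of −1.46 and −0.91, where 5.11% of all genes fell. In peripheral axons 8 of 20 and 17 of 41 rose, with medians of 1.11 and 0.85, where 18.7% of all genes rose. The difference between the axon types was called for 15 of 21 and 21 of 41 (5.88% of all genes lower). These counts are descriptions, and the start was not listed for 20 members.

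Other genes of ribosome production and TOP regulation were read off the same fits. Of 3 ribosomal protein genes outside the symbol rule, 1 fell in central axons, and 1 rose and 1 fell (−0.85) in peripheral axons. These counts are too small to set against the shares of all genes. Fau, which encodes a small subunit protein fused to a ubiquitin-like protein, fell in central axons (−1.41, adjusted p = 0.0399). Rack1, a signalling scaffold on the small subunit, rose in peripheral axons (1.43, adjusted p = 0.0072). Of 42 ribosome assembly factors, 1 rose and 3 fell in central axons, and 4 rose and 3 fell in peripheral axons (all genes: 8.63% and 5.11% in central, 18.7% and 12.5% in peripheral axons), with medians of −0.13 and −0.11. Nop56, a core protein of small nucleolar particles, rose by 1.93 in central axons, and Gnl3, nucleostemin, by 1.65 in peripheral axons. Of 10 RNA polymerase I genes, 1 rose in central axons (Polr1a, the largest subunit), and 1 rose and 1 fell in peripheral axons, counts too small to set against those shares.

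Of 14 other known TOP mRNAs, most of them encoding translation factors, 6 rose and none fell in peripheral axons (median 0.83; 18.7% and 12.5% of all genes), among them the intermediate filament gene Vim (2.30) and Pabpc1 (1.85), which encodes poly(A) binding protein. In central axons 2 of 14 fell (5.11% of all genes), the elongation factor genes Eef1b2 (−1.25) and Eef1g (−1.21). Of 11 regulators of TOP mRNAs, Tia1 rose in both (3.01 and 2.05), and Eif4ebp2 and Eif4ebp1, inhibitors of the cap-binding factor, rose in peripheral axons, which makes 1 of 11 in central (8.63% of all genes) and 3 of 11 in peripheral axons (18.7%). In peripheral axons against their controls no gene of these lists passed.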

How the data were processed

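The authors deposited 2 tables of raw counts per gene, 1 per batch, whole numbers with no normalization; per the submitters' processing notes STAR 2.7.2b and the build mm10 were used, and per the labels' protocols the libraries were made with SMART-Seq v4 from under 1 ng (somas) or 100 pg (axons) of RNA. How strand and reads that fit several genes were handled is not given in the sources used here. Of the members, 28 share exonic bases with another gene on the same strand and 19 with one on the opposite strand, and 60 have named pseudogenes (298 in all). All 55536 identifiers matched GENCODE M21. Of the batch 1 soma controls, 2 have identical column headers and are called a and b here. No 2 replicates agreed within sampling noise (chi-square per degree of freedom at least 24.8).

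Each comparison was fitted over all genes with edgeR 4.0.16 in R 4.3.3 (filterByExpr with a minimum count of 10 and total of 15, TMM, quasi-likelihood test, only the groups compared), with Benjamini-Hochberg adjustment over all genes tested. Members were read off these fits, and a member with an adjusted p under 0.05 was called. A log2 fold change is on edgeR's scale with its prior count. CPM is the count scaled to a library total of 1 M. Shared sequence is the percentage of 50-base stretches of a gene's principal coding transcript found in transcripts of other genes. Alternatives were DESeq2 1.42.0, other scalings, filters, groups and left-out libraries. Statistics were tested on simulated data. Floors of 3 counts cover counting error only.

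The members and gene lists were chosen with earlier results of these data known. Named genes were Rpl10a, Rplp0, Rps6, the stalk genes, paralogs with their parents and, among called members, up to 6 per subunit and direction with the smallest adjusted p; other members named, such as Rpl5, Rpl4, Rps10 and Rpl24, were chosen after their values were seen, and the roles follow a list of positions in the ribosome. Results for some single genes are not reported here.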

Additional observations from a re-analysis of the deposited data

Results flagged for a closer look

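The axon-soma difference differed between central and peripheral axons for 49 members in the test of that difference, as described above. No explanation was weighed.

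In 5 of 42 groups of values examined, 1 library stood far from the others of its group. Chance alone would mark about 1 group in 20. Of the counts on members and annotated ribosomal protein pseudogenes together, the pseudogenes held 5.30% in central axon control 4, against 0.451% to 0.800% in the other 3. They held 17.1% in soma control b of batch 1, against 0.454% to 0.678% in the other 3. Rpl10a stood at 13.8 CPM in batch 1 Cre soma 4 (others 40.5 to 44.2 CPM) and at 60.2 CPM in batch 1 soma control a (others 0 to 1.47 CPM). Rps6 stood at 21.7 CPM in batch 1 soma control 3 (others 0 to 1.47 CPM).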

How the results depend on the processing

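Counts of called members moved by over 1.5 times in these settings. With library size alone they were 1 (batch 1 soma against control), 13 (central axon against soma) and 53 (peripheral axon against soma). Of all genes, 19.2%, 16.8% and 30.9% were called with library size alone. This scaling also took the all-gene median of the central axon comparison from 0.05 to 0.50. In a fit of all 4 groups of a batch they were 1, 0 and 8 in the same order (13.8%, 0.0977% and 8.93% of all genes). For central axon against soma in controls that fit gave 5 (25.1% of all genes). With 10 counts required in every library of a group, that comparison gave 1 (7.06%). DESeq2 gave 3 for batch 2 soma against control (5.58% of all genes) and 2 for the batch 2 difference between Cre and control (1.55%). With the coding-length correction they were 9 for central and 62 for peripheral axons against soma (13.2% and 31.6% of all genes tested). Without batch 1 soma controls 3 and b they were 4 (soma against control, 34.1%) and 1 (batch 1 difference between Cre and control, 10.6%). Both settings were chosen after seeing the data. Leaving out 1 library gave 10 to 40 for central and 10 to 48 for peripheral axons against soma, 35 to 54 for the difference between axon types, 0 to 1 for batch 1 soma against control, 0 to 3 for that of batch 2, 0 to 1 for the batch 1 difference between Cre and control, and 0 in every run for its batch 2 counterpart, both axons against control and both control comparisons. Of the named genes that were called, no direction reversed in any setting run. The replicate numbers were not used as pairs, as libraries of the same number were not alike in every pair. For central axons and somas with Cre, deviations from the group mean correlated at −0.072 to 0.236 (mean 0.123, other pairs −0.041), which leaves pairing undecided. Peripheral axons and their somas share no number, so pairs could not be checked there. With the replicate block 27 members fell in central axons (29 without), and the other counts with a block were 0. Depth limits members near 3 counts, such as Rpl39l and Rpl3l, and in batch 1 Rps12, Rps27, Rpl23a and Rpl5 rest on under 20 CPM in every Cre library.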
